A study of Mus musculus with 6 samples.

Results

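The genes described here are 36 listed components of protein folding and quality control in the endoplasmic reticulum (ER), out of 55471 gene identifiers measured by bulk RNA sequencing of tumour-infiltrating T cells. The list was given by name, with no threshold on a measured value, although earlier results of these data were known when it was drawn up. All 36 were found in the files and all 36 passed the filter on low counts. By role, 15 are chaperones and folding enzymes, 11 belong to ER-associated degradation and 3 are stress sensors. A further 4 act downstream of the sensors and 3 serve translocation into the ER. The list holds both ends of the unfolded protein response, from its sensors to its targets.

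The study asked what loss of Elovl1, an elongase of very long-chain fatty acids that resides in the ER membrane, does to CD8+ T cells in pancreatic cancer. OT-I T cells carry a transgenic receptor for an ovalbumin peptide and here also a Cas9 knock-in allele. The sgElovl1 group (n = 3 libraries) received a lentivirus with a guide against Elovl1, and the sgNT group (n = 3) the same kind of vector with a non-targeting guide. Transduced cells were selected for the vector's CD90.1 reporter and transferred into mice with orthotopic KPC_OVA pancreatic tumours, which express the antigen. Anti-PD-1 treatment began on the following day in both groups. CD90.1+ cells were sorted from the primary tumour 7 days after transfer, so the comparison is between edited and control cells under the same therapy, with no untreated arm. Cells of each tumour were sorted separately, but replicates 1 and 2 of sgElovl1 each hold pooled RNA of 2 tumours, while replicate 3 of sgElovl1 and all 3 sgNT libraries hold 1 tumour each.

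As background, proteins that enter the secretory pathway are threaded into the ER, folded there by chaperones, disulfide isomerases and the lectin chaperones of the calnexin cycle, and returned to the cytosol for destruction when folding fails. Misfolded proteins or altered membrane lipids activate the sensors IRE1 (Ern1), PERK (Eif2ak3) and ATF6. IRE1 splices the Xbp1 mRNA, PERK slows translation and induces CHOP (Ddit3) through ATF4, and cleaved ATF6 acts with XBP1 on chaperone genes. In T cells this response accompanies activation and is also known from tumours. The values below are gene-level, so they carry no information on Xbp1 splicing, PERK phosphorylation or ATF6 cleavage.

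Part of the list shares a promoter element through which ATF6 and XBP1 are known to act, and it is printed as a sequence that part of the folding genes share. Promoter windows of 300 bases around the annotated start (RefSeq, GRCm38.p6) were at hand for 30 of the 36 members, and Atf6, Derl1, Hyou1, Manf, Ppp1r15b and Sec61a1 had no entry. The ER stress element, CCAAT and CCACG with 9 bases between them, was searched on both strands. It stood in the windows of 8 members (26.7% of the 30), against 37 of 27025 genes in all (0.137%). The elements are given 5′ to 3′ along their own strand, with the fixed bases in capitals.
Hspa5: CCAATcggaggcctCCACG
Hsp90b1, upstream copy: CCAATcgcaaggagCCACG
Hsp90b1, downstream copy: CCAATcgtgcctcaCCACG
Calr: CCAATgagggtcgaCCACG
Canx: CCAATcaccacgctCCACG
Pdia6: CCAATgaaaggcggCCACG
Creld2: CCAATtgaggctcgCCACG
Dnajc3: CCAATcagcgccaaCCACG
Syvn1: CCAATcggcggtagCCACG
The element lay 65 bases before the start in Hspa5 (window chr2:34771840-34772139, plus strand) and 145 bases before it in Canx (window chr11:50325624-50325923, minus strand). In Syvn1 (window chr19:6046326-6046625, plus strand) it lay 44 bases before the start. All but Syvn1 are folding genes. The folding genes Sdf2l1, Dnajb9, Dnajb11, Pdia3, Pdia4 and P4hb had a window without it.

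A shorter form, ER stress element II (ATTGG and CCACG with 1 base between them, both strands), stood in the windows of 2 members and of 12 genes in all (0.0444%). It is printed beside the longer element because both end in CCACG. Neither carrier passed the test.
Herpud1: ATTGGgCCACG
Dnajb11: ATTGGcCCACG
The core TGACGTG stood in the windows of 3 members, Hspa5, Ube2j1 and Vcp, against 2.22% of all genes. The composite TGATGCAAT, known as a site of ATF4 with CHOP, stood in 0 of 30, against 0.222% of all genes. A match is a description of the letters, and no match says only that these letters are not in the window.

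Libraries held 21980273 to 26165380 expected counts. Elovl1 itself had 81.5, 76.6 and 95.4 CPM (counts scaled to library size and TMM-normalised) in sgElovl1 libraries, against 283, 280 and 255 CPM in sgNT libraries, a log2 fold change of −1.69 ± 0.12 (SE, edgeR quasi-likelihood test, adjusted p = 8.71e-05), which matched the labels. Sums over markers are in CPM without TMM scaling. CD8 T cell markers summed to 12281 to 13247 CPM in sgElovl1 and 14720 to 15222 CPM in sgNT libraries, and fibroblast markers to under 0.5 CPM in every library. Of the 10 CD8 T cell markers, Cd3e was called higher and Cd8a, Cd8b1 and Trac lower (edgeR adjusted p under 0.05). Over all genes tested, 8.64% were called higher and 5.13% lower. Replicate 3 of both groups stood apart by tumour epithelium markers, which summed to 352 CPM in sgElovl1 replicate 3 and 1055 CPM in sgNT replicate 3 and to between 37.6 and 55.2 CPM in the other 4 libraries. Macrophage and monocyte markers summed to 112, 178 and 329 CPM in sgElovl1 libraries, against 44.2, 63.4 and 70.6 CPM in sgNT libraries. Of the 11 tested, 3 were called higher and 0 lower, beside the same shares over all genes. The part of these other cells in the results below was not tested.

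Among the 36 members, 3 rose in sgElovl1 cells and 0 fell (edgeR quasi-likelihood test, adjusted p under 0.05 over 12546 genes). The 3 were Sel1l and Edem3, both of ER-associated degradation, and Canx, which encodes the lectin chaperone calnexin. This is 8.33% of the members called higher, against 8.64% of all genes tested, and none called lower, against 5.13% of all genes. The count therefore lay at the background and does not set the list apart. At an unadjusted p under 0.05, 7 members were higher and 2 lower, where the shares over all genes were 17.4% higher and 14.7% lower. DESeq2 called 4 members higher and 1 lower, where it called 11.1% of all genes higher and 8.67% lower. The members' log2 fold changes ran from −0.38 to 0.79 with a median of 0.07, beside a median of −0.004 over all genes tested, and 24 of the 36 lay within 0.25 of zero. In bulk samples a difference in RNA per cell and a difference in the share of cells that hold it cannot be told apart.

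**Figure D1:**
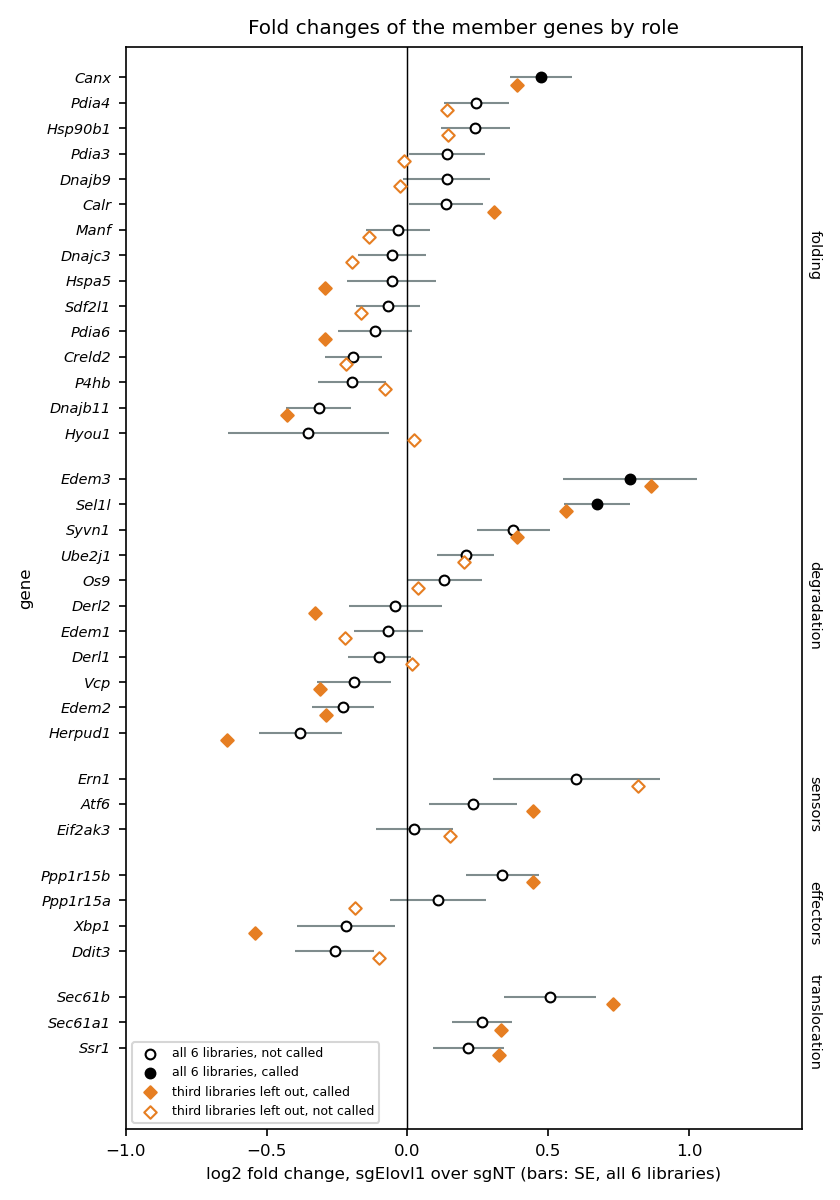
Log2 fold change of each of the 36 members, sgElovl1 over sgNT, grouped by role (circles, all 6 libraries, bars are the SE, filled where adjusted p was under 0.05) and again without replicate 3 of both groups (diamonds). Filled circles are Canx, Edem3 and Sel1l, and the translocation genes lie right of zero in both fits shown, while Ssr1 turned to −0.06 with an offset for transcript length.

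Without regard to the test, all 3 sgElovl1 libraries lay above all 3 sgNT libraries for 10 members and below them for 5. The shares over all genes tested were 19.4% above and 17.7% below. The 10 were Hsp90b1, Canx, Pdia4, Edem3, Sel1l, Syvn1, Ube2j1, Ppp1r15b, Sec61a1 and Sec61b, and the 5 were Dnajb11, P4hb, Creld2, Edem2 and Ddit3. Both directions thus occurred among the folding genes and among the degradation genes.

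**Figure D2:**
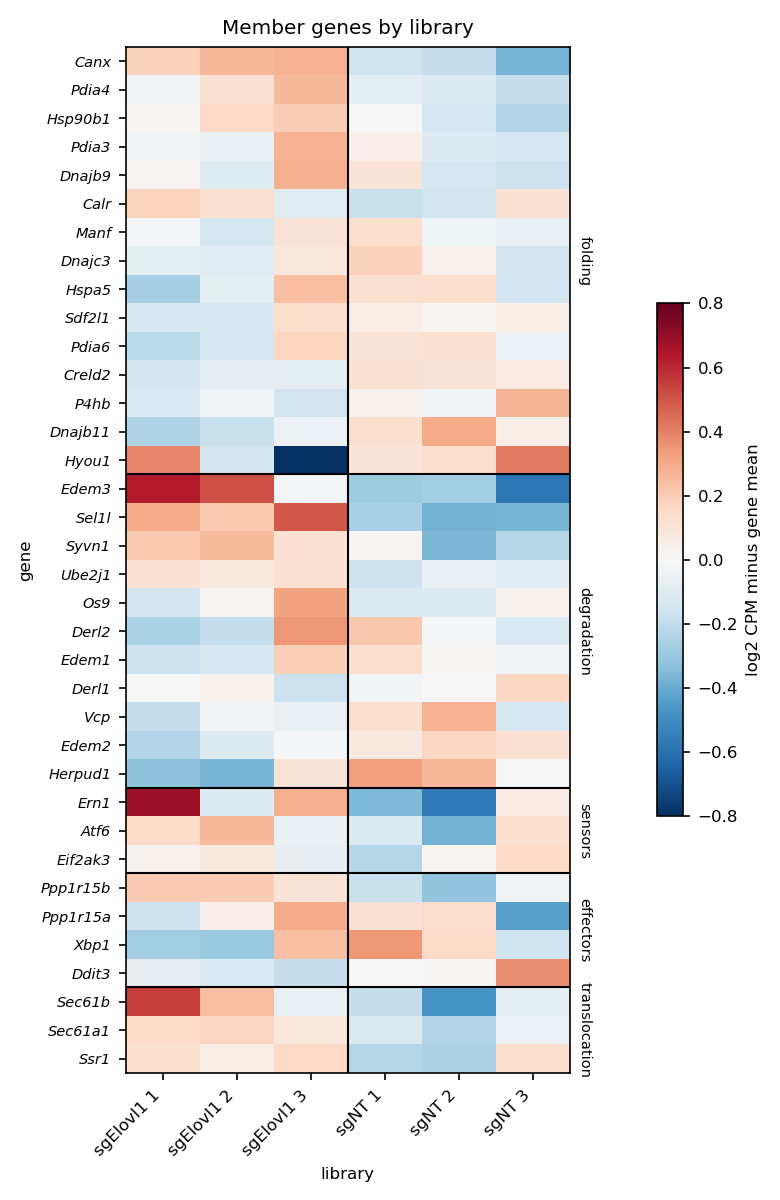
Log2 CPM of each member minus its mean over the 6 libraries (colour), with the sgElovl1 libraries left and the sgNT libraries right. Canx and Sel1l are above their mean in all 3 sgElovl1 libraries, while many folding genes are highest in sgElovl1 replicate 3.

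Of the 11 degradation genes, 2 rose, 0 fell and 9 did not pass the test, with a median log2 fold change of −0.04. That is 18.2% called higher, resting on 2 genes, where 8.64% of all genes tested were higher and 5.13% lower. Sel1l, the adaptor that holds the ubiquitin ligase HRD1 to its substrates (chr12:91806043-91849157, GRCm38), had 82.2, 77.3 and 94.7 CPM in sgElovl1 libraries, against 56.1, 51.6 and 51.9 CPM in sgNT libraries. The groups were well separated, with the lowest sgElovl1 library above the highest sgNT library. The log2 fold change was 0.67 ± 0.12 (SE, edgeR adjusted p = 0.0058). Sel1l was called in all 15 alternative fits, the 6 that each left out a library included, where its highest adjusted p was 0.039 without sgNT replicate 2 (edgeR).

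Edem3, a mannosidase-like protein that marks misfolded glycoproteins for disposal (chr1:151755371-151822051), was the lowest member per transcript length. It had 8.28, 7.61 and 5.26 CPM in sgElovl1 libraries, against 4.34, 4.37 and 3.52 CPM in sgNT libraries. The groups did not overlap, and replicate 3 was the lowest of each. The log2 fold change was 0.79 ± 0.24 (SE, edgeR adjusted p = 0.049), just inside the threshold. The call was lost when sgElovl1 replicate 1, sgElovl1 replicate 2 or any sgNT library was left out, with an adjusted p of up to 0.207, and the direction was the same in all 15 alternatives. Its close relatives did not pass the test. Edem1 had 198, 203 and 253 CPM in sgElovl1 libraries, against 243, 223 and 219 CPM in sgNT libraries, and Edem2 stood at −0.23 ± 0.11 on the log2 scale (SE, edgeR adjusted p = 0.171).

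Syvn1, the HRD1 ligase that works with Sel1l, had 37.7, 38.9 and 35.3 CPM in sgElovl1 libraries, against 33.0, 25.5 and 27.8 CPM in sgNT libraries. Its libraries did not overlap, yet its log2 fold change of 0.38 ± 0.13 did not pass the test (edgeR adjusted p = 0.0722). Herpud1, a stress-induced membrane protein of the same complex, lay the other way. It had 132, 128 and 177 CPM in sgElovl1 libraries, against 206, 198 and 164 CPM in sgNT libraries, and only replicate 3 of each group overlapped (log2 fold change −0.38 ± 0.15, edgeR adjusted p = 0.103). The remaining degradation genes were the channel components Derl1 (−0.10) and Derl2 (−0.04), the lectin Os9 (0.13), the ubiquitin-conjugating enzyme Ube2j1 (0.21) and the extracting ATPase Vcp (−0.19), all values being log2 fold changes that did not pass.

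Of the 15 folding genes, 1 rose, 0 fell and 14 did not pass, with a median log2 fold change of −0.05. That is 6.67% called higher, where 8.64% of all genes tested were higher and 5.13% lower. Canx (chr11:50293961-50325673) had 285, 300 and 304 CPM in sgElovl1 libraries, against 224, 221 and 194 CPM in sgNT libraries. Each sgElovl1 library was above each sgNT library by a margin wider than the spread within either group. The log2 fold change was 0.48 ± 0.11 (SE, edgeR adjusted p = 0.0191). The call was lost without sgElovl1 replicate 1, without sgElovl1 replicate 2 or without sgNT replicate 2, with an adjusted p of up to 0.11. Calr, the soluble partner of calnexin, had 710, 684 and 590 CPM in sgElovl1 libraries, against 555, 568 and 682 CPM in sgNT libraries, so its groups overlapped through replicate 3 of each (0.14 ± 0.13, edgeR adjusted p = 0.503). Pdia3, the disulfide isomerase that both lectins recruit, stood at 0.14 ± 0.14 on the log2 scale (edgeR adjusted p = 0.502).

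Hspa5 encodes BiP, the Hsp70 chaperone of the ER lumen and the usual marker of the unfolded protein response. It had 1533, 1752 and 2175 CPM in sgElovl1 libraries, against 2001, 2019 and 1656 CPM in sgNT libraries. The groups overlapped fully, with the highest and the lowest of the 6 values both in sgElovl1 (log2 fold change −0.06 ± 0.16, edgeR adjusted p = 0.836). Hsp90b1, the lumenal Hsp90, had 886, 984 and 1010 CPM in sgElovl1 libraries, against 885, 803 and 749 CPM in sgNT libraries. Its libraries did not overlap but touched, and it did not pass (0.24 ± 0.12, edgeR adjusted p = 0.200).

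The cochaperones and isomerases around BiP also gave no call. Dnajb11, a J-domain cochaperone of BiP, had 215, 225 and 246 CPM in sgElovl1 libraries, against 278, 313 and 264 CPM in sgNT libraries. All sgElovl1 values were below all sgNT values, with a log2 fold change of −0.32 ± 0.12 (edgeR adjusted p = 0.0872). The exchange factor Hyou1 had 20.2, 13.9 and 8.23 CPM in sgElovl1 libraries, against 16.6, 17.0 and 20.6 CPM in sgNT libraries, and varied most within sgElovl1 (−0.35 ± 0.29, edgeR adjusted p = 0.434). The log2 fold changes of the J-domain proteins Dnajb9 (0.14) and Dnajc3 (−0.05) and of the BiP-associated Sdf2l1 (−0.07) were small. Among the disulfide isomerases, Pdia4 was at 0.25, Pdia6 at −0.11 and P4hb at −0.20. Creld2 (−0.19) and Manf (−0.03), both known as stress-induced ER proteins, completed the group.

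The genes with the ER stress element did not move as a block. Their log2 fold changes ran from −0.19 to 0.48 with a median of 0.04, 4 being positive and 4 negative, and Canx alone among the 8 was called. The 22 members whose window lacked it had a median of 0.07, with 2 called. Shares called over all genes tested were 8.64% higher and 5.13% lower.

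None of the 3 sensors passed the test. Their log2 fold changes were positive in the reported fit, but with an offset for transcript length Atf6 turned to −0.23 and Eif2ak3 to −0.24. Ern1, which encodes IRE1, had 5.51, 3.17 and 4.16 CPM in sgElovl1 libraries, against 2.64, 2.26 and 3.56 CPM in sgNT libraries, and the groups overlapped (0.60 ± 0.30, edgeR adjusted p = 0.184). Its length-scaled level was 3.32 ± 1.02 TPM (RSEM's unit scaled to transcript length, SD, n = 3) in sgElovl1 and 1.20 ± 0.32 TPM in sgNT libraries. The mean transcript length that RSEM assigned to Ern1 was 1650 bases in sgElovl1 and 2694 bases in sgNT libraries, which widens the difference in TPM, and the fits on TPM called Ern1 higher. Atf6 had 26.3, 28.3 and 22.7 CPM in sgElovl1 libraries, against 21.9, 18.1 and 25.7 CPM in sgNT libraries, with replicate 3 making the groups overlap (0.23 ± 0.16, edgeR adjusted p = 0.321). Eif2ak3, which encodes PERK, had 25.6, 26.3 and 23.9 CPM in sgElovl1 libraries, against 21.3, 25.4 and 27.9 CPM in sgNT libraries, with full overlap (0.02 ± 0.14, edgeR adjusted p = 0.922), and its sign also turned without sgElovl1 replicate 2 and without sgNT replicate 1.

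Nor did any of the 4 genes downstream of the sensors pass. Xbp1, the transcription factor made from the IRE1-spliced mRNA, had 301, 296 and 430 CPM in sgElovl1 libraries, against 463, 404 and 326 CPM in sgNT libraries. Replicates 1 and 2 were lower in sgElovl1 and replicate 3 was higher (log2 fold change −0.22 ± 0.17, edgeR adjusted p = 0.416). Ddit3, the transcription factor CHOP, had 22.7, 21.7 and 20.9 CPM in sgElovl1 libraries, against 23.7, 23.9 and 30.5 CPM in sgNT libraries. The groups did not overlap, but the gap was narrow and the difference did not pass (−0.26 ± 0.14, edgeR adjusted p = 0.224). Ppp1r15a and Ppp1r15b encode the stress-induced and the constitutive subunit that direct a phosphatase to eIF2α, and had log2 fold changes of 0.11 ± 0.17 and 0.34 ± 0.13 (edgeR adjusted p = 0.703 and 0.102).

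**Figure D3:**
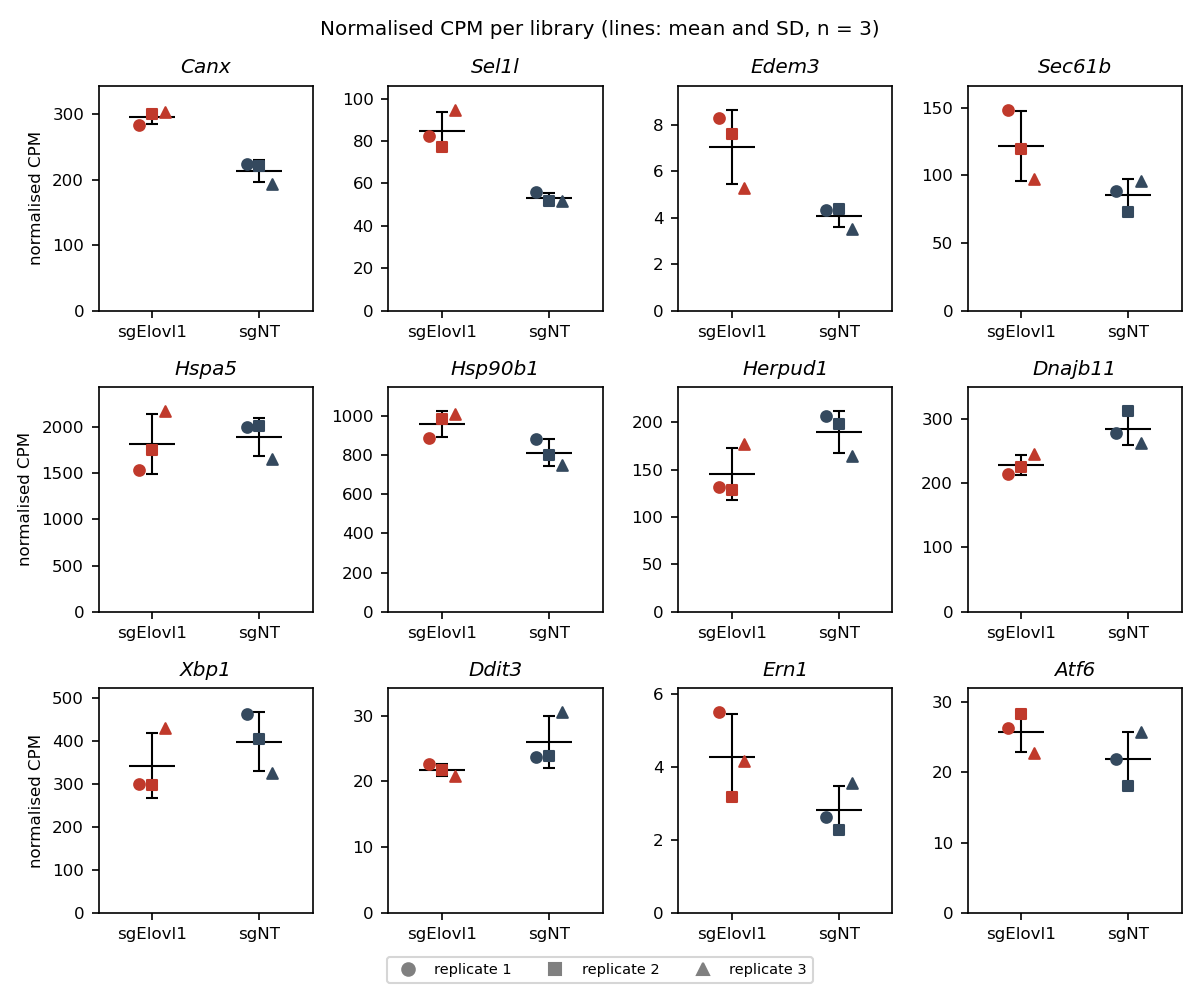
Normalised CPM of 12 members in each library (circle, square and triangle are replicates 1, 2 and 3), with the mean and SD of n = 3 per group. Canx, Sel1l and Edem3 separate the groups, whereas in Hspa5 and Xbp1 replicate 3 lies on the other side of the remaining replicates in both groups.

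The 3 translocation genes had positive log2 fold changes, although Ssr1 turned to −0.06 with an offset for transcript length, and none passed the test. Sec61b, a small subunit of the Sec61 channel, had 148, 119 and 96.9 CPM in sgElovl1 libraries, against 88.2, 72.8 and 95.7 CPM in sgNT libraries. The groups were separated by the narrow gap between both replicates 3 (0.51 ± 0.16, edgeR adjusted p = 0.0605), and DESeq2 called it (adjusted p = 0.0255). Sec61a1, the channel's pore-forming subunit, had 279, 281 and 266 CPM in sgElovl1 libraries, against 231, 213 and 242 CPM in sgNT libraries, again without overlap (0.27 ± 0.11, edgeR adjusted p = 0.115). Ssr1, a subunit of the translocon-associated protein complex, overlapped (0.22 ± 0.13, adjusted p = 0.260). Together the 3 genes held 728, 656 and 519 TPM in sgElovl1 libraries, against 446, 390 and 455 TPM in sgNT libraries, a sum set mainly by Sec61b.

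Calls depended on replicate 3, both among the members and over all genes. When replicate 3 of both groups was left out, which leaves 2 libraries against 2, edgeR called 10 members higher and 8 lower. Over all genes the same fit called 15.4% higher and 16.1% lower, against 8.64% and 5.13% in the fit on all 6 libraries. The 8 lower were Hspa5 (−0.29), Dnajb11 (−0.43), Pdia6 (−0.29), Edem2 (−0.29), Herpud1 (−0.64), Derl2 (−0.33), Vcp (−0.31) and Xbp1 (−0.54), as log2 fold changes with adjusted p between 0.000783 and 0.043. The 10 higher were Canx (0.39), Calr (0.31), Edem3 (0.86), Sel1l (0.57), Syvn1 (0.39), Atf6 (0.45), Ppp1r15b (0.45), Sec61a1 (0.33), Sec61b (0.73) and Ssr1 (0.33), with adjusted p between 0.00231 and 0.0478. All 3 translocation genes were thus called in replicates 1 and 2, while BiP and Xbp1 were called in the other direction. These are the same libraries in which epithelial markers were low, and the part of those markers in the difference was not tested. Both sgElovl1 libraries left in this fit hold pooled RNA of 2 tumours, and both sgNT libraries hold 1 tumour. Pooling and the guide therefore cannot be told apart in it.

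For the list as a whole, sgElovl1 replicate 3 alone stood apart. Over all genes tested, the median deviation from the gene's own mean was 0.02 on the log2 scale in that library. The members' median deviation from their own mean was 0.11 on the log2 scale in sgElovl1 replicate 3, where macrophage markers were also highest, and between −0.05 and 0.02 in the other 5 libraries. For the folding genes it was −0.02, −0.07 and 0.14 in sgElovl1 libraries, against 0.10, −0.02 and −0.05 in sgNT libraries. For the translocation genes it was 0.15, 0.16 and 0.08 in sgElovl1 libraries, against −0.19, −0.25 and −0.05 in sgNT libraries. By this median the folding genes overlapped between the groups and the translocation genes did not, although Ssr1 taken alone did.

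Per transcript length, the members covered a wide range of levels. Hspa5 was the highest in both groups, at 848 ± 132 TPM in sgElovl1 and 845 ± 132 TPM in sgNT libraries (SD, n = 3 each). Pdia3 followed at 530 ± 50.8 TPM in sgElovl1 and 462 ± 43.8 TPM in sgNT libraries, then Calr at 490 ± 53.5 TPM in sgElovl1 and 420 ± 44.5 TPM in sgNT libraries. Pdia3 and Calr lay within their spread of each other in both groups. The lowest were Edem3 at 1.31 ± 0.28 TPM in sgElovl1 and 0.68 ± 0.11 TPM in sgNT libraries, then Ern1. Next came Hyou1 in sgElovl1, at 3.69 ± 1.56 TPM, and Atf6 in sgNT, at 3.12 ± 0.37 TPM. The 3 sensors together held 12.7 to 15.7 TPM in sgElovl1 and 10.6 to 12.4 TPM in sgNT libraries. The 15 folding genes held 3613, 3912 and 4078 TPM in sgElovl1 libraries, against 3757, 3863 and 3319 TPM in sgNT libraries, and so overlapped.

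**Figure D4:**
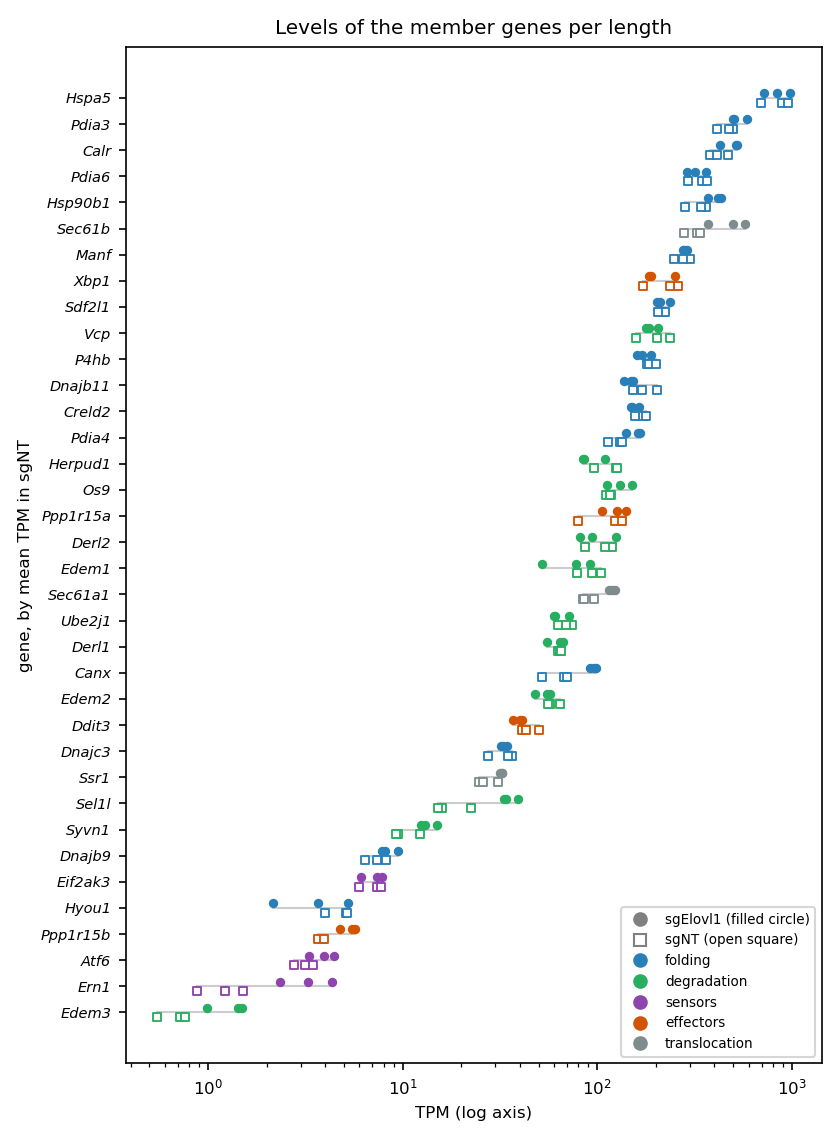
Level of each member in TPM on a log axis, ordered by its mean in sgNT libraries, with every library shown (filled circles sgElovl1, open squares sgNT, colours by role). Mean levels in sgNT libraries span from 0.68 TPM for Edem3 to 845 TPM for Hspa5, and the groups lie apart for genes such as Ern1, Edem3, Sel1l, Canx and Sec61a1.

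Transcript length moved with the fold changes across all genes. With the genes tested divided by length into 5 equal bins, in the longest bin the median log2 fold change was 0.32, with 19.2% called higher and 0.957% lower, while in the shortest bin it was −0.09, with 3.59% higher and 6.10% lower. The members' medians ran the same way, at −0.05 for the 4 members in the shortest bin and 0.23 for the 8 in the longest. Canx and Edem3 belong to the longest bin and Sel1l to the next. With an offset for length in the fit, Sel1l kept its call (log2 fold change 0.54, edgeR adjusted p = 0.0216). Canx (0.25, adjusted p = 0.153) and Edem3 (0.36, adjusted p = 0.296) lost theirs, and Sec61b, the shortest member, gained a call (edgeR adjusted p = 0.0461). The sign turned for 7 members, to negative for Atf6 (the longest member, at 7219 bases), Eif2ak3, Ppp1r15b and Ssr1 and to positive for Sdf2l1, Manf and Derl2, none of them called in either fit. Whether length itself has a part in these calls was not tested.

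**Figure D5:**
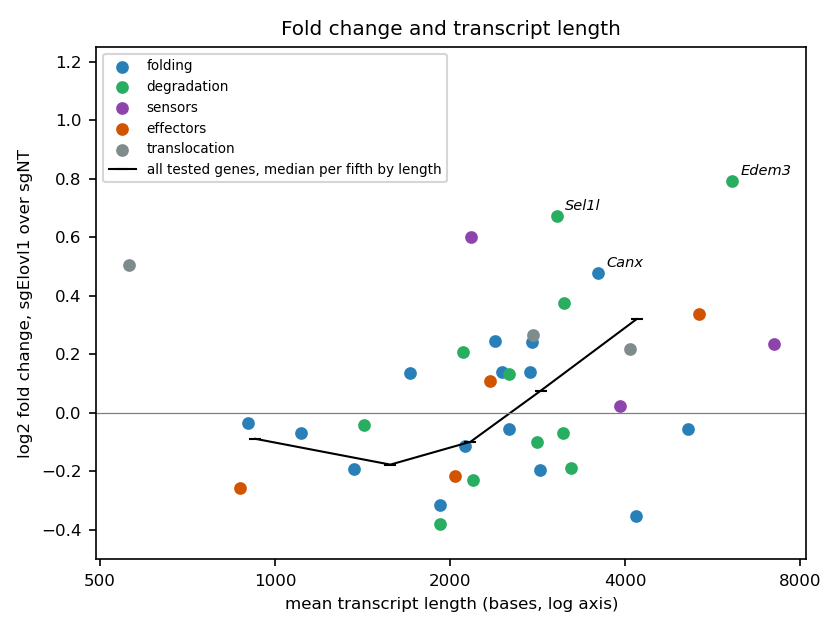
Log2 fold change of the members, sgElovl1 over sgNT, against mean transcript length in bases on a log axis (points, colours by role), with the median of all tested genes in each of 5 length bins (line). The line climbs to 0.32 in the longest bin, Sel1l and Canx lie above it, and Edem3 lies beyond its end.

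Other genes of the same pathways, 126 listed and 123 tested, gave 5 calls higher and 7 lower, which is 4.07% and 5.69% of those tested, against the 8.64% higher and 5.13% lower over all genes. Neither share sets these genes apart. Their median log2 fold change was −0.06. Of the 32 other folding genes tested, 2 rose and 1 fell. Uggt1, the glucosyltransferase that sends unfolded glycoproteins back to calnexin, had 97.5, 83.1 and 64.2 CPM in sgElovl1 libraries, against 45.5, 39.6 and 44.5 CPM in sgNT libraries (0.92 ± 0.15, edgeR adjusted p = 0.0045). Its libraries did not overlap, and it kept its call in all 6 fits that left out a library. The transmembrane thioredoxin Tmx3 was higher (0.41, edgeR adjusted p = 0.0408) and Cnpy4 lower (−0.49, adjusted p = 0.0359, and 0.0555 with a replicate block).

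Of the 30 other degradation genes, 0 rose and 1 fell, the ubiquitin-conjugating enzyme Ube2g2 (−0.41, edgeR adjusted p = 0.0468, and 0.0642 with a replicate block). Of the 29 other sensors and effectors tested, 1 rose and 3 fell. The higher gene was Bcl2l11, the BH3-only protein BIM that CHOP is known to induce (0.71, edgeR adjusted p = 0.0143). The lower genes were the ER-anchored transcription factors Creb3 (−0.50, edgeR adjusted p = 0.0401) and Creb3l1 (−0.58, adjusted p = 0.0401), and Zbtb8os (−0.47, adjusted p = 0.0405), a cofactor of the tRNA ligase complex that also joins spliced Xbp1. Atf4, between PERK and CHOP, had 145, 124 and 91.7 CPM in sgElovl1 libraries, against 122, 102 and 162 CPM in sgNT libraries, with full overlap (edgeR adjusted p = 0.788).

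Of the 32 other translocation genes, 2 rose and 2 fell, with 14 log2 fold changes positive and 18 negative. Sec61g, the remaining subunit of the Sec61 channel, had 94.4, 77.5 and 84.2 CPM in sgElovl1 libraries, against 59.3, 29.0 and 44.4 CPM in sgNT libraries, without overlap (0.95 ± 0.23, edgeR adjusted p = 0.0358, and 0.239 without replicate 3 of both groups). The signal peptidase subunit Spcs3 was also higher (0.44, edgeR adjusted p = 0.0441, and 0.0522 with a replicate block). Dad1 of the oligosaccharyltransferase was lower (−0.49, edgeR adjusted p = 0.0185), as was Ssr2, a partner of Ssr1 in its complex (−0.50, adjusted p = 0.0381). Of the 12 calls in these lists, all but that of Uggt1 were lost in each of the fits without sgElovl1 replicate 1, without sgElovl1 replicate 2 and without sgNT replicate 2, with an adjusted p of up to 0.188 (edgeR). Of the same 12, 10 were lost without sgNT replicate 1, 8 without sgNT replicate 3 and 2 without sgElovl1 replicate 3. With the length offset, 4 of the 12 were called, namely Uggt1, Creb3l1, Sec61g and Dad1.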

How the data were processed

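CD90.1+ OT-I T cells from KPC_OVA tumours were profiled by bulk RNA sequencing from SMARTer cDNA, and groups were taken from the sample titles. The authors aligned reads to mm10 with STAR 2.7.7a and deposited, per library and gene, RSEM 1.3.1 expected counts, TPM and mean transcript lengths in bases. The authors' DESeq2 version was 1.36.0, and its output was not used here. The annotation release is not given in the sources used here. Identifiers were paired with symbols through GENCODE M21 (GRCm38), where 55230 of 55471 matched. Of the 2 identifiers of Ddit3, the one with counts was used.

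Expected counts were rounded and fitted with edgeR 4.0.16 in R 4.3.3 (filterByExpr with a minimum count of 10, TMM scaling, robust quasi-likelihood test). The Benjamini-Hochberg adjustment ran over all 12546 genes tested, and an adjusted p under 0.05 was a call. The SE is the absolute log2 fold change divided by the square root of F. The fits were checked on simulated data. The alternatives, 15 in all, were DESeq2 1.42.0, limma-voom (limma 3.58.1), RLE size factors, no count filter, limma on log2(TPM + 1) and log2(TPM + 0.1), a replicate block, a loess offset on length, each library left out, and replicate 3 of both groups left out. Libraries with the same replicate number deviated together across genes (correlations of 0.212, 0.245 and 0.405). Unlike numbers among replicates 1 and 2 did so too, at 0.169 (sgElovl1 1 with sgNT 2) and 0.107 (sgElovl1 2 with sgNT 1). Pairs of a replicate 3 with another number ran from −0.294 to −0.233. Deviations were taken from each group's own mean, so they cancel within a group and these correlations are not independent of each other. The highest of them was that between both replicates 3. The replicate block took the numbers to pair libraries, although no label gives a shared day or batch. The test without the block is the one reported.

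All 36 members are described by role. Every library's value is given for called members and for Hspa5, Hsp90b1, Ddit3, Xbp1, Ern1, Atf6 and Eif2ak3, and for others chosen after their values were seen. From the other pathway lists the called genes are named, up to 3 per direction, and Atf4 was added after its values were seen. The members and lists were chosen with earlier results of these data known. Levels between genes are compared in TPM only. Figures were drawn with matplotlib. The paper names a strand-specific mRNA service after the SMARTer amplification, but the strand setting used in counting is not given. Counts of overlapping genes on opposite strands may therefore mix.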

Additional observations from a re-analysis of the deposited data

How the results depend on the processing

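Among the members, Sel1l was called under all 15 alternatives, Canx under 11 and Edem3 under 6, and all 3 stayed positive throughout. The count of members called higher, 3 in the reported fit, was 5 on log2(TPM + 0.1), where 7.52% of all genes were higher, and 10 without replicate 3 of both groups, where 15.4% were. It ran from 1 to 4 when each library was left out, beside 2.15% to 11.0% of all genes. The count called lower, 0 in the reported fit, was 1 with DESeq2 (Dnajb11), where 8.67% of all genes were lower, and 8 without replicate 3 of both groups, where 16.1% were. It ran from 0 to 2 when each library was left out, beside 0.323% to 10.1% of all genes, the 2 being Dnajb11 and Herpud1 without sgElovl1 replicate 3. Leaving out a library also lowers the number of libraries, which by itself lowers the power of the test. Beside 8.64% higher and 5.13% lower in the reported fit, the all-gene shares still rose without sgElovl1 replicate 3, to 11.0% and 10.1%. They rose as well without replicate 3 of both groups, and fell in every other fit that left out a single library. The replicate block left the counts in the paired fit at 3 higher and 0 lower, with the edgeR adjusted p at 0.0108 for Sel1l, 0.0338 for Canx and 0.0429 for Edem3, and it changed no member's call. The median log2 fold change of the members, 0.07 as reported, was 0.0024 without replicate 3 of both groups and 0.0069 with the length offset, and ran from −0.016 to 0.083 when each library was left out. The median of the translocation genes, 0.27 as reported, was 0.43 on log2(TPM + 1), 0.43 on log2(TPM + 0.1) and 0.18 with the length offset, and ran from 0.23 to 0.36 when each library was left out. The median of the sensors, 0.23 as reported, was 0.45 without replicate 3 of both groups and −0.23 with the length offset. The median of the degradation genes, −0.04 as reported, was 0.090 with the length offset, and ran from −0.054 to 0.069 when each library was left out. Without the count filter the median of all genes moved to 0.12, so fold changes in that fit are read against it. Where no value above shows a cause, the cause was not tested. Among the members the widest SEs were those of Ern1 (0.30), Hyou1 (0.29) and Edem3 (0.24). Ern1 and Edem3 had the lowest mean CPM of the members, whereas Hyou1 spread over 20.2, 13.9 and 8.23 CPM within sgElovl1.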
